A study of Bos taurus with 16 samples.

Results

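The circadian clock genes measured here were ARNTL, NPAS2, PER1, PER2, PER3, CRY1, CRY2, NR1D1, NR1D2 and DBP. They were found on the array as the transcript clusters, the probe groups that stand for 1 transcript region each, whose annotation gave exactly 1 of these symbols. All 10 genes were found. Of the 26773 transcript clusters with a value, 11 belonged to them, with 1 for each gene and a second for PER2. Both PER2 transcript clusters are given below, and the one with the higher mean stands for the gene in counts. They were picked by symbol, and the rule uses no measured value.

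The samples were the livers of 16 male crossbred beef steers of several breeds. All were fed the same high-concentrate finishing diet with wet distillers grains for 78 days at will. From a larger trial, 4 steers were taken from each quadrant of gain and intake, as the steers farthest from the mean of both traits. With 4 steers each, the groups are those of low gain at high or low intake and those of high gain at low or high intake. Steers are numbered 1 to 4 within a group, in the order of their records. Steers of the 4 groups differ in both growth and feed eaten by selection, not by treatment, and no untreated group exists. Harvest was spread over several days with each group present on each day, but the day and the hour of harvest of each steer are not in the labels used here. Clock transcripts change over the day, so the harvest hour could not be set against any value below.

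The clock is a feedback loop of transcription. In mouse liver, the product of ARNTL (BMAL1) pairs with CLOCK or its relative NPAS2 and switches on genes that carry E-box elements, among them the PER and CRY genes, NR1D1, NR1D2 and DBP. PER and CRY proteins return to the nucleus and block that activator. The nuclear receptors REV-ERB alpha and beta, from NR1D1 and NR1D2, repress ARNTL and NPAS2, and DBP drives a further set of genes through D-box elements. In mouse liver ARNTL and NPAS2 therefore peak at roughly the opposite time of day from NR1D1, NR1D2, DBP and the PER genes, and CRY1 peaks later than the PER genes.

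The samples are whole liver, where fewer cells of a type and less RNA per cell cannot be told apart. Of 10 hepatocyte markers, 9 lay at or above the 95th percentile of transcript clusters, with means of 14.04 to 21.84 on the log2 scale, and APOA1 was the exception at 8.82. The bile duct keratins KRT7 and KRT19 lay below the 25th percentile on 13 of the 16 arrays, and GZMA, a gene of T and NK cells, on all 16. The other bile duct markers, EPCAM and SOX9, lay below it on 0 arrays. Of the other T and NK markers, CD2 lay below it on 6 arrays and CD3E, CD3D, NKG7 and CD8A on 0. The arrays fell into 2 sets of 8 by their medians, 7.41 to 7.47 in set 1 and 7.16 to 7.28 in set 2, which no label names. Set 1 held 3 low gain-low intake steers, 2 low gain-high intake, 2 high gain-low intake and 1 high gain-high intake steer. The clock genes of the PER side differed between the sets, with means of 13.75 and 12.70 for NR1D2 and of 7.70 and 7.10 for PER2 in set 1 and set 2. Values within each set are therefore given beside the results, and those within a set rest on 1 to 3 steers per group.

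The clock genes differed widely in level and in how much they varied from steer to steer. NR1D2 was the brightest, with a mean of 13.23 on the log2 scale, and ranged from 11.72 to 14.51, which is a 6.92-fold span. PER1 spanned 5.71-fold, PER3 5.46-fold, PER2 4.18-fold and DBP 4.15-fold. The second PER2 transcript cluster spanned 2.83-fold. ARNTL, the activator, and NR1D1, its repressor, spanned 3.48-fold and 3.45-fold. CRY1, CRY2 and NPAS2 varied least, with spans of 1.91-fold, 1.90-fold and 1.70-fold. Levels of different genes on the array are not comparable per transcript, since probes differ in response, so these spans compare each gene only with itself.

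Set against all transcript clusters, the spread of the PER and REV-ERB beta transcripts was large, except in the second PER2 transcript cluster. The spread of the CRY genes and NPAS2 was small. The SD over the 16 steers was 0.81 for NR1D2 and 0.77 for PER1, at the 94.7th and 93.8th percentile of all transcript clusters. Among transcript clusters of like level, within 0.5 on the log2 scale, they lay at the 86.6th and 91.8th. PER3 lay at the 85.4th, DBP at the 84.1st, PER2 at the 82.2nd and ARNTL at the 76.7th percentile of all transcript clusters. The second PER2 transcript cluster had an SD of 0.39, at the 59.5th percentile. CRY1, CRY2 and NPAS2 lay at the 32.2nd, 22.4th and 10.1st. The median SD of all transcript clusters was 0.35. For NR1D2 the SD within groups was 0.85 and for PER1 0.78, no smaller than the SD over all 16 steers. Steers of the same group made up 87.5% of the sum of squares of NR1D2 and 81.1% of that of PER1, where 12 of 15 degrees of freedom lie within groups. That part was smaller for PER2 (67.1%), ARNTL (63.4%), CRY2 (61.2%) and NPAS2 (56.1%). Within array sets the SD of NR1D2 was 0.63 and that of PER1 0.74.

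**Figure D1:**
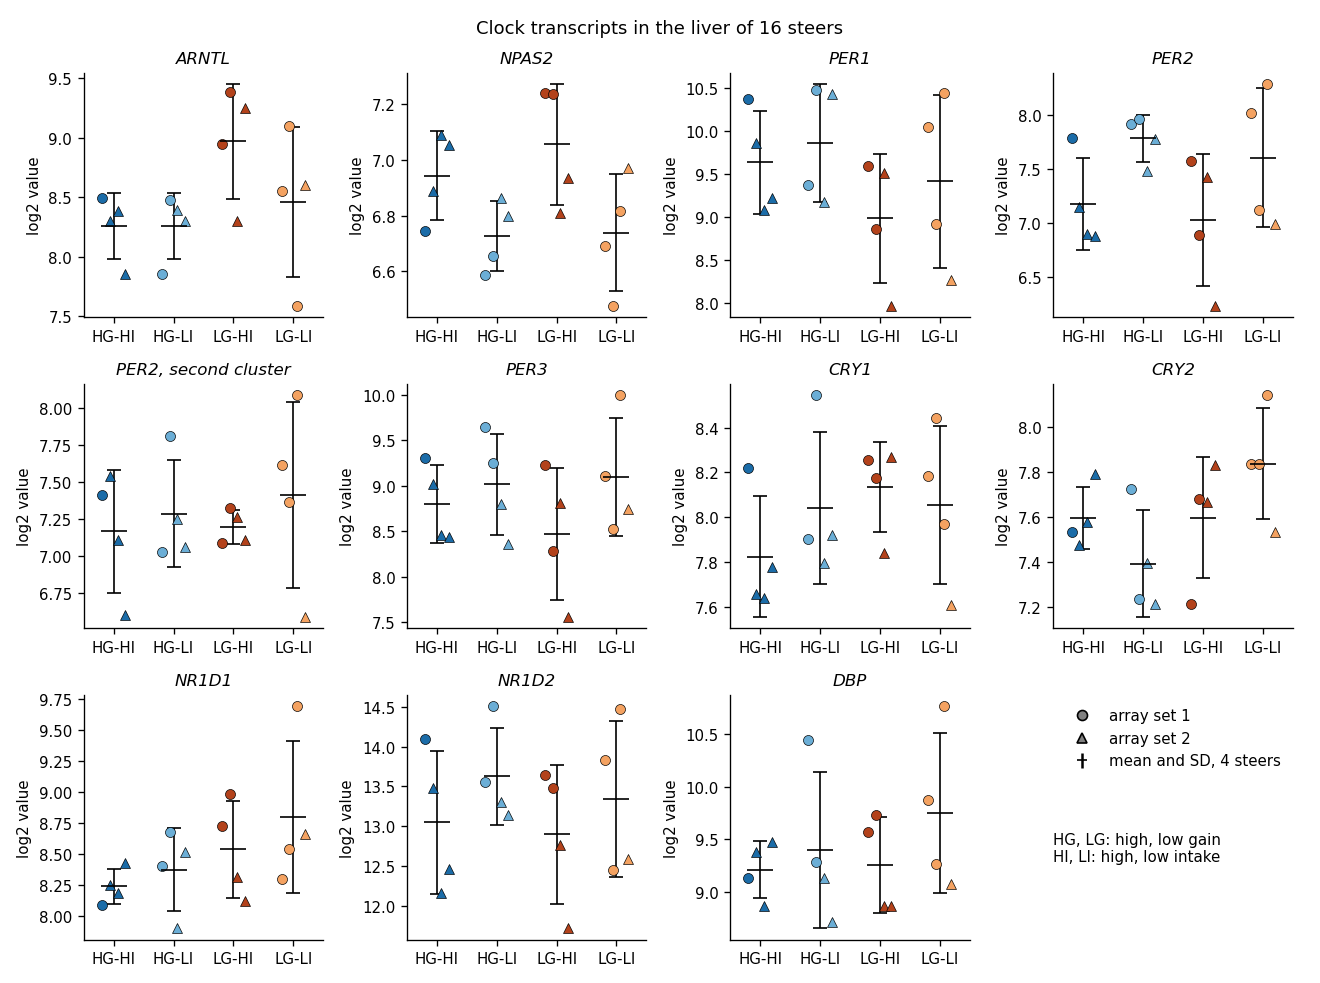
Log2 value of each clock transcript cluster (vertical axis) in the 4 groups (horizontal axis), 1 point per steer, with circles for array set 1 and triangles for array set 2, and the mean and SD of 4 steers in black. The groups overlap in every panel, and low gain-high intake steer 4 is the lowest point for PER1, PER2, PER3 and NR1D2.

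The same few steers made the extremes of several genes. Low gain-high intake steer 4 was the lowest of the 16 for PER1 at 7.96, for PER2 at 6.23, for PER3 at 7.55 and for NR1D2 at 11.72, and it was the second highest for ARNTL at 9.25. Low gain-low intake steer 3 was the highest for PER2 at 8.29, PER3 at 10.002, NR1D1 at 9.69, DBP at 10.76 and CRY2 at 8.14, and the lowest for ARNTL at 7.59. These steers belong to different groups and to different array sets. What sets them apart was not tested.

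Whether clock transcripts differed among the 4 phenotypes was asked first over all groups together. No clock gene passed that test. In limma's moderated F, 0 of 10 reached an unadjusted p of 0.05 or less, against 2.33% of all 26773 transcript clusters. With the methods' ordinary F the count was also 0, against 2.72%. The smallest unadjusted p-values were 0.0917 for ARNTL and 0.121 for PER2, and each adjusted p was 1.00 in limma. With 4 groups for each of the 10 genes, 30 neighbouring group means could be compared. In 27 of them the difference was no larger than the SD within groups, and the groups overlapped in all 30. The 3 larger steps were those of ARNTL (0.51) and CRY2 (0.24) between the groups of low gain, and that of NPAS2 (0.21) from the high gain-high intake down to the low gain-low intake steers. The highest and the lowest group mean of a gene were further apart than its SD within groups for 8 of the 10, all but NR1D2 and DBP. Those groups also overlapped for all 10. How often such steps and overlaps occur over all transcript clusters was not computed, so these counts only describe the 10 genes.

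The order of the group means differed between the activators and the PER genes. ARNTL was 8.97 ± 0.48 in low gain-high intake steers, 8.46 ± 0.63 in low gain-low intake steers and 8.26 ± 0.28 in both groups of high gain (SD, n = 4). NPAS2 was also highest in low gain-high intake steers, at 7.05 ± 0.22, and lowest where intake was low, at 6.73 ± 0.13 with high gain and 6.74 ± 0.21 with low gain. PER1, PER2 and NR1D2 had their lowest mean in low gain-high intake steers and their highest in high gain-low intake steers. For NR1D2 these means were 12.90 ± 0.87 and 13.63 ± 0.61. PER3 had its lowest mean in the same group as PER2. PER3, NR1D1, DBP and CRY2 were highest in low gain-low intake steers. These orders are given as a description, since no gene passed the test over the groups.

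The contrast of gain set the 8 high gain against the 8 low gain steers. ARNTL, the activator of the loop, was lower in high gain steers. It lay at 8.49, 8.30, 8.39 and 7.86 in high gain-high intake steers 1 to 4 and at 7.86, 8.48, 8.39 and 8.30 in high gain-low intake steers 1 to 4. In low gain-high intake steers 1 to 4 it was 8.95, 9.39, 8.30 and 9.25, and in low gain-low intake steers 1 to 4 it was 8.56, 9.09, 7.59 and 8.60. All high gain steers thus lay at or below 8.49, whereas 6 of the 8 low gain steers lay above that, and the lowest value of all was in a low gain steer. The deposited value was exactly the same, 8.30, in 3 steers, as it was for DBP at 8.87 in 3 steers, and 3749 of the 26773 transcript clusters held such equal values. The gain effect was -0.46 (standard error 0.21, 95% interval -0.90 to -0.01, limma unadjusted p = 0.0450, adjusted p = 1.00).

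This ARNTL difference was at the edge of the threshold. It was -0.46 in array set 1 and -0.42 in set 2. Its unadjusted p was 0.0663 once the array set was a block, 0.0612 in the methods' ordinary test and 0.0651 in a two-sided exact permutation test, and it rose above 0.05 when any 1 of 11 of the 16 steers was left out. No other clock gene reached an unadjusted p of 0.05 or less for gain, so that 1 of 10 did, against 3.48% of all transcript clusters. NR1D1 had a gain effect of -0.36 (standard error 0.20, unadjusted p = 0.0843) and CRY2 one of -0.22 (standard error 0.13, unadjusted p = 0.102). The interval of NR1D1 ran from -0.78 to 0.05 and that of CRY2 from -0.50 to 0.05.

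PER1, which glucocorticoids induce in mice, had a gain effect of 0.55 (standard error 0.35) that missed the threshold with an unadjusted p of 0.136. Once the array set was a block it was 0.73 (standard error 0.32) with an unadjusted p of 0.0410, where 5.24% of all transcript clusters had one of 0.05 or less. It was 0.63 within set 1 and 1.10 within set 2. The count of 1 clock gene for gain in the blocked fit was PER1, and ARNTL in the fit without the block. For CRY1, PER2, PER3, NR1D2, DBP and NPAS2 the gain effects lay between -0.20 and 0.22 and each 95% interval included 0. Once the array set was a block, the gain effect was 0.50 for NR1D2 (standard error 0.29, unadjusted p = 0.109), 0.30 for PER2 (standard error 0.20, unadjusted p = 0.161) and 0.29 for PER3 (standard error 0.24, unadjusted p = 0.244).

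The contrast of intake set the 8 high intake against the 8 low intake steers, and PER2 and NPAS2 differed in opposite directions. PER2, a repressor of the loop, was lower in high intake steers. It was 7.79, 7.14, 6.90 and 6.88 in high gain-high intake steers 1 to 4 and 7.58, 6.89, 7.43 and 6.23 in low gain-high intake steers 1 to 4. It was 7.92, 7.96, 7.48 and 7.78 in high gain-low intake steers 1 to 4 and 8.02, 7.12, 8.29 and 6.99 in low gain-low intake steers 1 to 4. The high gain-low intake steers were all at 7.48 or above, and 6 of the 8 high intake steers lay below that, but the intake groups overlapped. The intake effect was -0.59 (standard error 0.24, 95% interval -1.09 to -0.09, limma unadjusted p = 0.0234, adjusted p = 0.998, two-sided exact permutation p = 0.0272). On a linear scale this is a 1.51-fold lower level. The unadjusted p rose above 0.05 without low gain-low intake steer 1 (0.0507), low gain-low intake steer 3 (0.0560) or low gain-high intake steer 4 (0.0541).

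The second PER2 transcript cluster had a smaller difference that missed the threshold. Its intake effect was -0.17 (standard error 0.20, 95% interval -0.60 to 0.26, limma unadjusted p = 0.412). It was -0.25 in array set 1 and 0.26 in set 2, where the first PER2 transcript cluster had -0.37 and -0.41. Across the 16 steers both transcript clusters correlated with a Pearson r of 0.57 (permutation p = 0.0209) and a Spearman rho of 0.50 (permutation p = 0.0483). The r was 0.53 in set 1 and 0.24 in set 2. Which of them follows the PER2 transcript more closely cannot be read from these values.

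NPAS2, the partner of BMAL1 that can replace CLOCK, was higher in high intake steers, though by little. It was 6.75, 6.89, 7.09 and 7.05 in high gain-high intake steers 1 to 4 and 7.24, 7.24, 6.81 and 6.94 in low gain-high intake steers 1 to 4. It was 6.59, 6.65, 6.86 and 6.80 in high gain-low intake and 6.69, 6.48, 6.82 and 6.97 in low gain-low intake steers 1 to 4. All but 1 of the high intake steers lay above 6.80, and the ranges overlapped. The intake effect was 0.27 (standard error 0.11, 95% interval 0.03 to 0.51, limma unadjusted p = 0.0323, adjusted p = 0.998, two-sided exact permutation p = 0.00886). It was 0.35 in array set 1 but 0.04 in set 2. NPAS2 lay below the array's own median in all 16 steers. Its unadjusted p rose above 0.05 when any 1 of 8 of the 16 steers was left out, to at most 0.0741.

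The count for intake was thus 2 of 10 clock genes at an unadjusted p of 0.05 or less, against 2.86% of all transcript clusters, and neither adjusted p was below 0.05. Both genes kept an unadjusted p below 0.05 once the array set was a block, at 0.0436 for PER2 and 0.0400 for NPAS2, against 3.66% of all transcript clusters. For the other 8 clock genes the intake effects ran from -0.51 for NR1D2 to 0.26 for ARNTL. PER3 was at -0.42 (standard error 0.27, unadjusted p = 0.147), DBP at -0.34 (standard error 0.27, unadjusted p = 0.235) and PER1 at -0.33 (standard error 0.35, unadjusted p = 0.356). The median intake effect of the 10 genes was -0.27, and that of all transcript clusters -0.03. In the blocked fit PER1 and NR1D2 had intake effects of -0.15 and -0.23.

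For the interaction of gain and intake, 0 of 10 clock genes reached an unadjusted p of 0.05 or less, against 2.81% of all transcript clusters. The largest interaction relative to its error was that of CRY2, at 0.44 (standard error 0.26, unadjusted p = 0.105). Its 95% interval ran from -0.10 to 0.99.

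**Figure D2:**
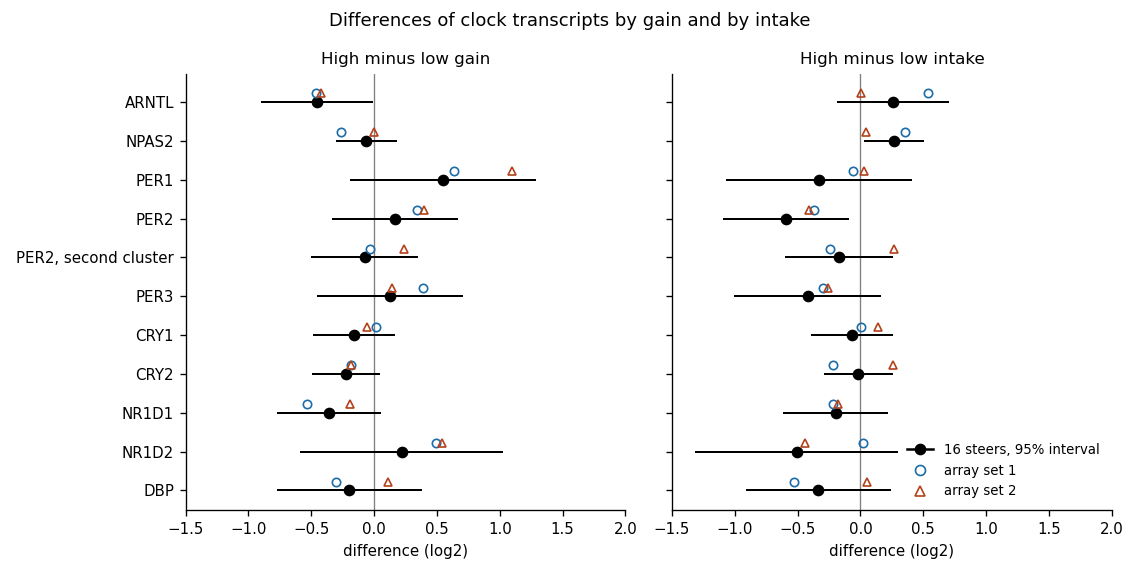
Difference of each clock transcript cluster (rows) by gain and by intake on the log2 scale (horizontal axis), as the limma estimate over 16 steers with its 95% interval (black) and as the difference within array set 1 (open circles) and set 2 (open triangles). The interval leaves out 0 only for ARNTL by gain and for PER2 and NPAS2 by intake.

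How the clock genes moved with each other was then asked across the 16 steers, whatever their group. PER1, PER2, PER3 and NR1D2 rose and fell together. The 45 pairs of clock genes were all compared by Pearson's r and Spearman's rho, with permutation p-values adjusted over the 45 by the Benjamini-Hochberg method. Of the 45 pairs, 7 had an adjusted p below 0.05 for r, and these were the 6 pairs among PER1, PER2, PER3 and NR1D2 and the pair of PER3 and DBP. The pairs share genes and are not independent of each other.

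PER1 lay at 10.38, 9.86, 9.08 and 9.22 in high gain-high intake steers 1 to 4 and at 9.37, 10.48, 9.17 and 10.43 in high gain-low intake steers 1 to 4. It was 9.59, 8.86, 9.51 and 7.96 in low gain-high intake steers 1 to 4 and 10.04, 8.92, 10.45 and 8.26 in low gain-low intake steers 1 to 4. Each group but low gain-high intake held a steer above 10, and the lowest steers were of low gain. Against PER2, r was 0.85 (permutation p = 4e-05, adjusted p = 0.0009) and rho was 0.83 (permutation p = 0.00014, adjusted p = 0.00255). The r was 0.85 in array set 1 and 0.81 in set 2, and 0.78 without the 2 steers farthest from the median of PER1. Of all other transcript clusters, 0.0598% correlated with PER2 as highly as PER1 did.

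PER3, the third PER gene, followed PER2 as closely. Its values were 9.30, 9.02, 8.46 and 8.43 in high gain-high intake steers 1 to 4 and 9.65, 9.25, 8.80 and 8.36 in high gain-low intake steers 1 to 4. They were 9.23, 8.28, 8.81 and 7.55 in low gain-high intake steers 1 to 4 and 9.11, 8.52, 10.002 and 8.75 in low gain-low intake steers 1 to 4. The ends of PER3 were thus low gain-high intake steer 4 and low gain-low intake steer 3, as for PER2. Between PER2 and PER3, r was 0.86 (permutation p = 6e-05, adjusted p = 0.0009) and rho was 0.83 (permutation p = 0.00017, adjusted p = 0.00255). The r was 0.92 in set 1 and 0.64 in set 2, and 0.71 without the 2 steers farthest from the median of PER2. Of all other transcript clusters, 0.0149% correlated with PER3 as highly as PER2 did.

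NR1D2, which encodes REV-ERB beta, went with the PER genes more closely than NR1D1 did by the size of r. It was 14.10, 13.48, 12.16 and 12.46 in high gain-high intake and 13.55, 14.51, 13.31 and 13.13 in high gain-low intake steers 1 to 4. It was 13.64, 13.48, 12.77 and 11.72 in low gain-high intake and 13.84, 12.45, 14.47 and 12.59 in low gain-low intake steers 1 to 4. Of the 8 steers of array set 1, all but low gain-low intake steer 2 lay at 13.48 or above. With PER2, r was 0.85 (permutation p = 5e-05, adjusted p = 0.0009) and rho was 0.84 (permutation p = 8e-05, adjusted p = 0.00255), with r of 0.74 and 0.81 in the sets and 0.74 without the 2 steers farthest from the median of PER2. With PER1 r was 0.80 (adjusted p = 0.00207 by permutation) and with PER3 0.81 (adjusted p = 0.0018 by permutation), and rho was 0.77 and 0.79 (adjusted p = 0.00711 for both by permutation).

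The pairs of PER1 with PER3 and of PER3 with DBP were weaker. Their r was 0.66 (permutation p = 0.00531, adjusted p = 0.0341) and 0.70 (permutation p = 0.00275, adjusted p = 0.0206). For PER1 with PER3, rho was 0.66 (adjusted p = 0.0505 by permutation), r was 0.55 without the 2 farthest steers, and the adjusted p was 0.0759 after the mean of each array set was subtracted. For PER3 with DBP, rho was 0.53 (adjusted p = 0.182 by permutation), r was 0.52 without the 2 farthest steers, and the adjusted p was 0.154 after subtraction of the set means. The other 5 pairs kept an adjusted p below 0.05 after subtraction, with r of 0.71 to 0.83. They also did with Spearman's rho, in which no other pair did, and whichever 1 of the 16 steers was left out. PER1 with PER3 lost it when any 1 of 8 steers was left out, and PER3 with DBP without high gain-low intake steer 1 (adjusted p = 0.0695 by permutation) or low gain-low intake steer 3 (adjusted p = 0.180 by permutation).

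The array's own level moved with these genes. Across the 16 arrays the array median correlated with NR1D2 at 0.58, with DBP at 0.55, with PER2 and PER3 at 0.50 and 0.49, with PER1 at 0.37 and with CRY1 at 0.77, given as a description over the same arrays. After the median of each array was subtracted, the 6 pairs among PER1, PER2, PER3 and NR1D2 had r of 0.62 to 0.83, and after quantile normalization 0.58 to 0.83. Without low gain-high intake steer 4 the lowest of the 6 was 0.51, between PER1 and PER3, and the highest 0.80. The second PER2 transcript cluster correlated with NR1D2 at 0.69, with PER1 at 0.62 and with PER3 at 0.51. Within array set 2 these r were 0.43, 0.41 and 0.23.

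**Figure D3:**
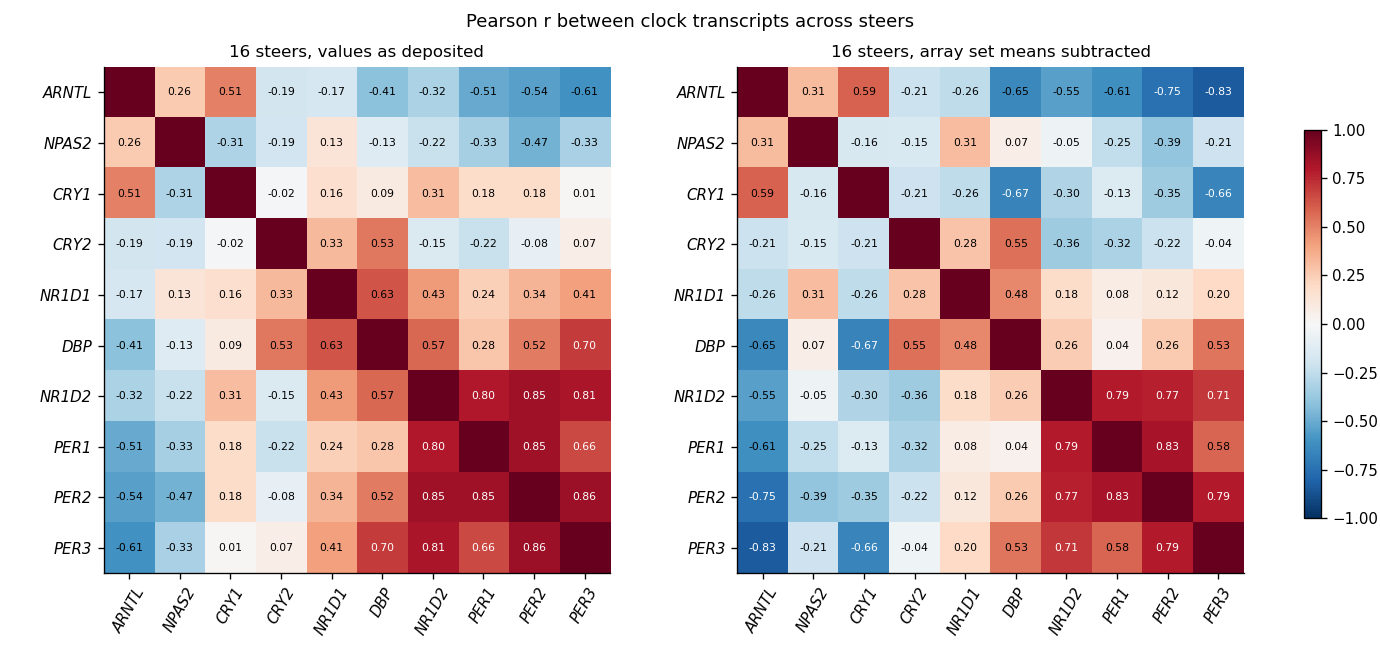
Pearson r between the 10 clock genes across 16 steers, on a colour scale from -1 (blue) to 1 (red), for the values as deposited (left) and after subtraction of each array set's mean (right). PER1, PER2, PER3 and NR1D2 form the red block at the lower right of both panels, and ARNTL is blue against that block.

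Whether the opposing phases of the loop could be seen across steers was asked for the 12 pairs of ARNTL or NPAS2 with PER1, PER2, PER3, NR1D1, NR1D2 or DBP. In 11 of the 12 r was negative, and the median r was -0.33. The exception was NPAS2 with NR1D1, at 0.13. The share of negative r over all transcript clusters was not computed, so the count is a description. Of all other transcript clusters, 45.6% had an r with NPAS2 as low as DBP did. For NR1D2 that share was 32% and for PER2 4.65%. With ARNTL, 20.2% were as low as NR1D1 and 0.235% as low as PER3. None of the 12 had an adjusted p below 0.05 over the values as deposited. The 16 pairs within either side of the loop had r above 0 in all 16, with a median of 0.60. Within array set 2, however, 5 of the 16 were below 0. An r above 0 was also frequent over the array, and 65.6% of all other transcript clusters had one with PER2. As high an r with PER1 as NR1D1 had was found for 38.6%, and as DBP had for 34.7%. As high an r with PER1 as PER2 had was found for 0.0971%. The 12 pairs rest on 8 genes in the same 16 steers.

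Against the PER genes ARNTL had its lowest r. With PER3 its r was -0.61 (permutation p = 0.0134, adjusted p = 0.0671), with PER2 -0.54 (permutation p = 0.0311, adjusted p = 0.127) and with PER1 -0.51 (permutation p = 0.0449, adjusted p = 0.138). By rank these were weaker, with rho of -0.38 (permutation p = 0.148, adjusted p = 0.371), -0.35 (permutation p = 0.185, adjusted p = 0.416) and -0.50 (permutation p = 0.0488, adjusted p = 0.220). Without the 2 steers farthest from the median of ARNTL the r was -0.41, -0.36 and -0.38. Of all other transcript clusters, 0.956% had an r of -0.5 or lower with ARNTL, as these 3 PER genes did. The second PER2 transcript cluster had an r of -0.11 (permutation p = 0.684) and a rho of 0.02 with ARNTL, and an r of -0.42 in set 1 and 0.13 in set 2.

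Within each array set the r of ARNTL with the PER genes was further below 0 than over the pooled steers. ARNTL and PER3 had an r of -0.94 in set 1 and -0.63 in set 2, and ARNTL and PER2 one of -0.88 and -0.57. For PER1 it was -0.62 and -0.67. After the set means were subtracted, r was -0.83 for PER3 (adjusted p = 0.0072 by permutation) and -0.75 for PER2 (adjusted p = 0.0120 by permutation), and -0.61 for PER1 (adjusted p = 0.0518 by permutation). In that scale 0.0149% of the other transcript clusters were as far below 0 with ARNTL as PER3 was. With only the median of each array subtracted, the adjusted p was 0.0045 for PER3, 0.0157 for PER2 and 0.0508 for PER1 by permutation. After quantile normalization the adjusted p was 0.00506 for PER3, 0.0075 for PER2 and 0.0282 for PER1 by permutation. After subtraction of the group means instead, r was -0.57 for PER3, -0.50 for PER2 and -0.36 for PER1, and none of them passed (adjusted p = 0.292, 0.384 and 0.537 by permutation).

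DBP and NR1D2, on the same side as the PER genes, were also negative against ARNTL, at -0.41 and -0.32. They were -0.70 and -0.58 within set 1 and -0.48 and -0.52 within set 2. Neither had an adjusted p below 0.05 in any of these scalings. NPAS2 had its lowest r with PER2, at -0.47 (permutation p = 0.0674, adjusted p = 0.190). It was -0.35 and -0.63 within the sets. By rank that pair had a rho of -0.60 (permutation p = 0.0166, adjusted p = 0.0934).

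**Figure D4:**
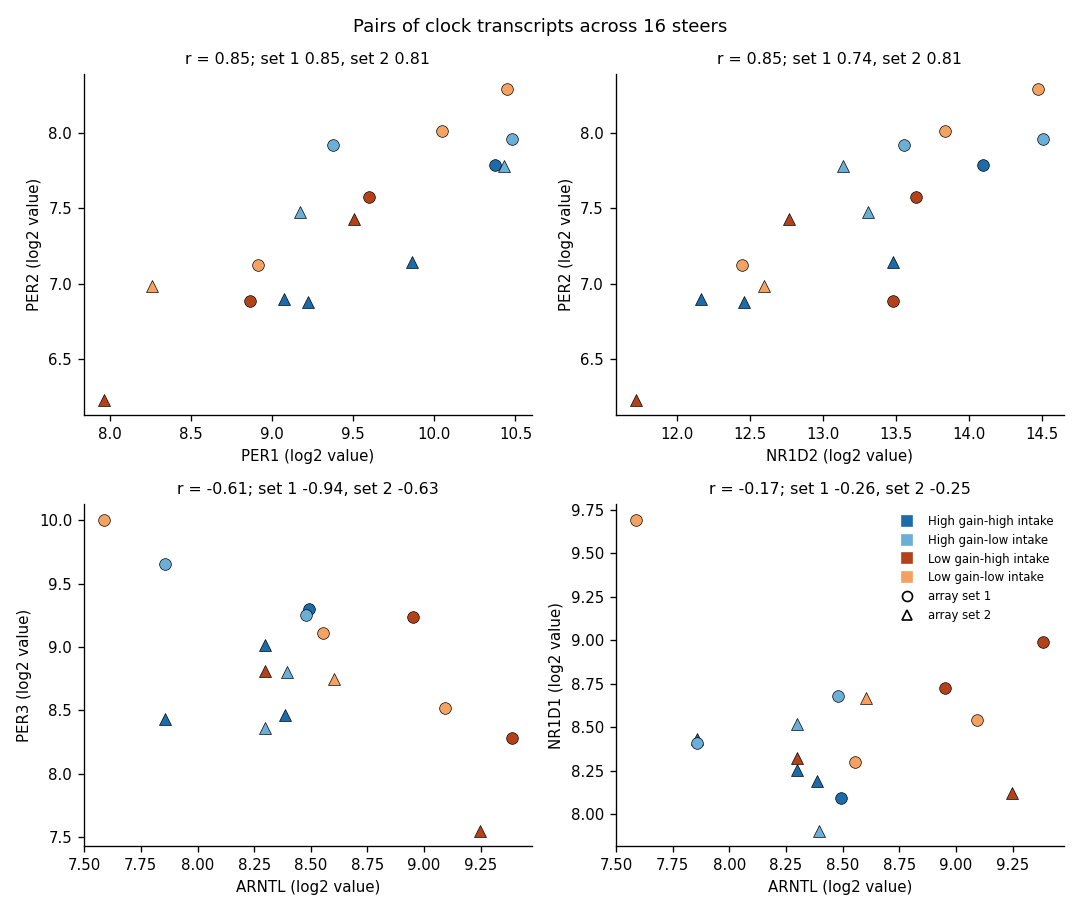
Log2 values of pairs of clock genes in 16 steers, with colours for the groups, circles for array set 1 and triangles for array set 2, and Pearson r above each panel. PER2 rises with PER1 and with NR1D2 in both sets, PER3 falls as ARNTL rises, and ARNTL and NR1D1 show no line, with low gain-low intake steer 3 alone at the upper left.

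NR1D1, the gene of REV-ERB alpha and a repressor of ARNTL, had an r near 0 with ARNTL across these steers. It was 8.09, 8.25, 8.19 and 8.43 in high gain-high intake and 8.41, 8.68, 7.90 and 8.52 in high gain-low intake steers 1 to 4. It was 8.72, 8.99, 8.32 and 8.12 in low gain-high intake and 8.30, 8.54, 9.69 and 8.67 in low gain-low intake steers 1 to 4. Only low gain-low intake steer 3 was above 9, and it had the lowest ARNTL. Over the 16 steers r was -0.17 (permutation p = 0.543, adjusted p = 0.675) and rho was 0.05 (permutation p = 0.865, adjusted p = 0.893). It was -0.26 and -0.25 within the sets. Without low gain-low intake steer 3, r was 0.35, and without the 2 steers farthest from the median of ARNTL it was 0.09. The sign over the 16 steers thus rested on low gain-low intake steer 3, which is not in set 2, where r was -0.25.

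NR1D1 had a lower r with the PER genes than NR1D2 did. Its r was 0.24 with PER1, 0.34 with PER2, 0.41 with PER3 and 0.43 with NR1D2, and the smallest unadjusted permutation p of these 4 was 0.0960. Its highest r was with DBP, at 0.63 (permutation p = 0.0132, adjusted p = 0.0671), with a rho of 0.45 (permutation p = 0.0833, adjusted p = 0.312). That pair had an r of 0.60 in set 1 and -0.02 in set 2, and of 0.29 without low gain-low intake steer 3. The difference between the r of NR1D1 and that of NR1D2 was not tested.

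The CRY genes, partners of PER in repression, had an r of -0.22 to 0.18 with the PER genes over all 16 steers, but not within the array sets. CRY1 had an r of 0.18 with PER1, 0.18 with PER2 and 0.01 with PER3, and CRY2 one of -0.22, -0.08 and 0.07. Within set 2 the r of CRY2 was -0.66 with PER1, -0.81 with PER2 and -0.45 with PER3, where set 1 gave -0.08, 0.16 and 0.17. CRY1 had -0.52 and -0.84 with PER3 within the sets and -0.33 and -0.37 with PER2. CRY1 instead went with ARNTL, at 0.51 (permutation p = 0.0461, adjusted p = 0.138) with a rho of 0.49 (permutation p = 0.0546, adjusted p = 0.223), and at 0.59 and 0.63 within the sets. CRY1 was higher in array set 1, with a mean of 8.21 against 7.81, as the array medians were. After subtraction of the set means its r was -0.67 with DBP (adjusted p = 0.0291 by permutation) and -0.66 with PER3 (adjusted p = 0.0515 by permutation), where it had been 0.09 and 0.01. CRY2 had its highest r with DBP, at 0.53 (permutation p = 0.0361, adjusted p = 0.135) and a rho of 0.38 (permutation p = 0.147, adjusted p = 0.371). That r was 0.28 without low gain-low intake steer 3.

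Other genes of the clock were taken from lists of regulators, of genes known as clock output in mouse liver and of genes that answer to glucocorticoids, the adrenal hormones that also carry the daily rhythm to the liver. Of the 18 regulators 14 were measured, of the 23 output genes 21 and of the 11 glucocorticoid genes all 11, with PER1 among the last. In the group comparisons these lists had few calls. Over the 4 groups an unadjusted p of 0.05 or less was found in 0 of 14 regulators, 0 of 21 output genes and 1 of 11 glucocorticoid genes, FKBP5, where 2.33% of all transcript clusters had one. For gain the counts were 0, 0 and 1 (3.48% of all), for intake 1, 1 and 0 (2.86%) and for the interaction 0, 1 and 1 (2.81%). In limma each adjusted p of these genes was 0.998 or more. Once the array set was a block, the counts for gain were 1, 2 and 4, against 5.24% of all transcript clusters. The last were FKBP5, MT2A, ZBTB16 and PER1, and none of the adjusted p-values was below 0.05.

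For intake the called genes were FBXL21 and ALAS1. ALAS1, the rate-limiting enzyme of heme synthesis, was lower in high intake steers by an effect of -0.76 (standard error 0.31, unadjusted p = 0.0250), with -0.84 and -0.53 within the array sets. FBXL21, a ubiquitin ligase subunit that acts on CRY proteins in mice, was higher, with an effect of 0.38 (standard error 0.15, unadjusted p = 0.0258), 0.35 and 0.18 within the sets. CLOCK, the other partner of BMAL1, had an intake effect of 0.20 (standard error 0.13, unadjusted p = 0.130) and RORA, a nuclear receptor that activates ARNTL, one of -0.48 (standard error 0.25, unadjusted p = 0.0684). For the median over the lists the intake effect was 0.01 in regulators, -0.14 in output genes and -0.16 in glucocorticoid genes, beside -0.03 over all transcript clusters.

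Across steers, several of these genes went with PER2. Each of 45 list genes other than PER1 was compared with PER2 and with ARNTL, which gives 90 relations over which p-values were adjusted, and PER2 was taken for this after its relations to the clock genes had been seen. Of the 14 regulators 9 correlated above 0 with PER2 and 1 passed, of the 21 output genes 15 did and 4 passed, and of the 10 glucocorticoid genes 9 did and 2 passed an adjusted p of 0.05 by permutation. An r above 0 with PER2 was found for 65.6% of all other transcript clusters, so that the shares of regulators and output genes were near the background. As high an r as the lowest of the 7 that passed was found for 3.71%. With ARNTL, 0 regulators, 2 output genes and 0 glucocorticoid genes passed, both of the 2 below 0, and 0.0336% of all other transcript clusters had an r as low. The genes that passed are described next and were chosen after their values were seen.

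The regulator was RORA, with an r of 0.78 with PER2 (permutation p = 0.00048, adjusted p = 0.0201) and a rho of 0.81 (permutation p = 0.00026, adjusted p = 0.0117). It was 0.79 in array set 1, 0.57 in set 2 and 0.73 without the 2 farthest steers. RORA and the REV-ERBs compete for the same DNA elements in mice. CLOCK had an r of -0.30 with PER2 and 0.41 with ARNTL (permutation p = 0.251 and 0.117), and its r with ARNTL was 0.69 in set 1 and -0.25 in set 2.

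The output genes were USP2, ALAS1, PPARA and POR. USP2, a ubiquitin protease with a strong daily rhythm in mouse liver, ranged from 7.07 to 10.65 and had an r of 0.76 with PER2 (adjusted p = 0.0201 by permutation) and -0.71 with ARNTL (adjusted p = 0.0261 by permutation). Within the sets it was 0.84 and 0.75 with PER2 and -0.85 and -0.55 with ARNTL, and without the 2 farthest steers 0.63 and -0.50. ALAS1 had 0.72 with PER2 (adjusted p = 0.0261 by permutation) and -0.74 with ARNTL (adjusted p = 0.0254 by permutation). Its r with ARNTL was -0.96 in set 1 and -0.47 in set 2. By rank the relations of USP2 and ALAS1 with ARNTL were weaker, with rho of -0.63 and -0.55 and adjusted p of 0.106 and 0.164 by permutation.

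PPARA, the fatty acid sensing nuclear receptor, had an r of 0.71 with PER2 (adjusted p = 0.0325 by permutation), and POR, the electron donor of cytochrome P450 enzymes, one of 0.67 (adjusted p = 0.0458 by permutation). They were 0.56 and 0.60 within the sets for PPARA and 0.57 and 0.58 for POR. Without the 2 farthest steers POR had 0.44, and by rank its rho was 0.51 (adjusted p = 0.219 by permutation). The glucocorticoid genes were ZBTB16, a zinc finger transcription factor, at 0.84 with PER2 (permutation p = 2e-05, adjusted p = 0.0018) and KLF9, a Kruppel-like factor, at 0.69 (adjusted p = 0.0414 by permutation). ZBTB16 was 0.76 and 0.78 within the sets and KLF9 0.59 and 0.74. ZBTB16 was 0.79 without the 2 farthest steers.

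**Figure D5:**
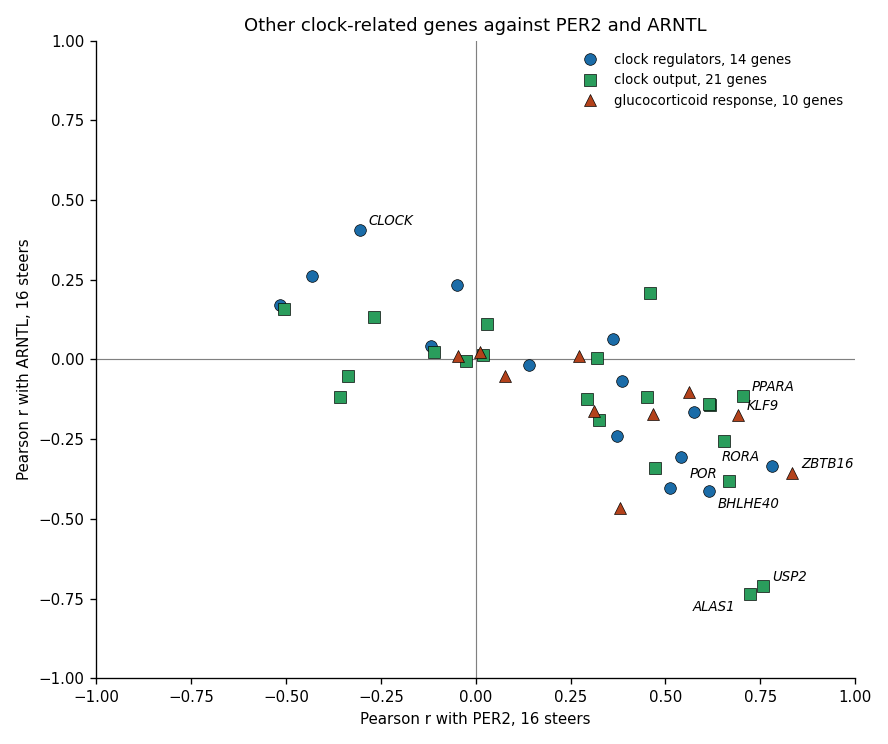
Pearson r with PER2 (horizontal axis) and with ARNTL (vertical axis) across 16 steers for 14 clock regulators, 21 clock output genes and 10 glucocorticoid genes, 1 point per gene. USP2 and ALAS1 lie at the lower right, with r of 0.76 and 0.72 against PER2 and -0.71 and -0.74 against ARNTL.

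Markers of liver cell types were set against PER2 and ARNTL in the same steers. Taken as the mean log2 value of a list, r with PER2 ran from -0.18 for B cells to 0.58 for stellate cells and fibroblasts, and r with ARNTL from -0.34 for hepatocytes to 0.37 for B cells, as a description over 16 steers. The mean of 6 stellate and fibroblast markers ran from 9.39 to 9.92 in high gain-high intake and from 9.55 to 10.07 in low gain-high intake steers. It ran from 9.73 to 9.94 in high gain-low intake and from 9.76 to 10.33 in low gain-low intake steers. After subtraction of the set means its r with PER2 was 0.40. The hepatocyte mean of 10 markers stayed between 17.99 and 18.65. In the comparison of the 4 groups, 2 of 3 smooth muscle and 2 of 6 Kupffer cell and macrophage markers passed the unadjusted threshold of limma. No marker of the other cell types did, and 2.33% of all transcript clusters did. Once the array set was a block, the counts were 1 of 3 and 1 of 6. In the fit without the block no marker had an adjusted p below 0.05. The part of these markers in the relations above was not tested.

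The genes whose pattern across steers was most like that of ARNTL and of NR1D1 were taken by Pearson's r over 16 steers. The array set means were subtracted first, and 18779 transcript clusters with 1 symbol were searched. The clock genes themselves were left out beforehand, so none could be named here. For ARNTL the highest were CHAC1 (0.85), OR2T22 (0.82), DEPDC5 (0.80), OR9K2 (0.80) and ASPA (0.77). The lowest were CLUAP1 (-0.87), TMEM179 (-0.85), DENND2B (-0.81), ALAS1 (-0.80) and SCD5 (-0.78). ALAS1 is the only one of these on the lists above. PER3, left out as a clock gene, had an r of -0.83 with ARNTL in this scale, below that of DENND2B. For NR1D1 the highest were GABRA5 (0.81), PVALB (0.79), RASA1 (0.79), MED21 (0.78) and LOC100336222 (0.76), and the lowest SLFNL1 (-0.85), LYPD6B (-0.78), NOP9 (-0.76), TMEM178A (-0.76) and MMS22L (-0.72). Several of these genes were dim. CHAC1, LOC100336222 and NOP9 lay below the 25th percentile of the array on all 16 arrays, OR9K2 and SLFNL1 on 14 and ASPA on 11. Among the clock genes left out, DBP had the highest r with NR1D1 in this scale, at 0.48. As high an r was found for 2.54% of all other transcript clusters. GABRA5 had an r of -0.09 with NR1D1 over the values as deposited, and SCD5 one of -0.16 with ARNTL.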

How the data were processed

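Each of the 16 liver RNA samples was hybridised to 1 Affymetrix array. The authors made the deposited log2 values with RMA after Signal Space Transformation and GC count normalization. Affymetrix Expression Console and Transcriptome Analysis Console are named in the submitters' processing notes, while their versions, the genome build and each sample's RNA integrity were not given in the sources used here. Precision is limited by how many arrays there are. Gene symbols came from the platform annotation, with 18790 transcript clusters of 1 symbol, 385 of several and 7598 of none.

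From these values limma 3.58.1 (R 4.3.3) was fitted with 1 mean per group over all 26773 transcript clusters. Its F compared the groups, and contrasts gave gain (high minus low), intake (high minus low) and their interaction. P-values were adjusted by Benjamini-Hochberg over all transcript clusters. Exact permutation tests exchanged steers between groups. Correlations used 100000 permutations, two-sided (scipy 1.17.1). With 8 steers against 8 the smallest exact p is 0.000155.

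All members were named, with up to 5 genes of each list by the smallest p over the groups. BHLHE40 and the list genes past the adjusted p with PER2 or ARNTL were named after their values were seen. For ARNTL and NR1D1, the 5 highest and 5 lowest r among genes other than the members were named. Members and lists were chosen with earlier results of these data known. The scripts were tested on simulated data. No harvest hour or day could be mapped to a steer, and promoter sequences were not used here. Each p-value sets a difference or a correlation against the variation between steers.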

Additional observations from a re-analysis of the deposited data

Results flagged for a closer look

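Of 44 sets of 4 steers (11 transcript clusters in 4 groups), 1 held a steer far from the other 3. CRY1 in high gain-low intake steer 2 was at 8.55, while the other steers of its group lay between 7.80 and 7.92. Its gap to the nearest was 0.837 of the group's range, above the 95% critical value of Dixon's test for 4 values. Chance gives about 1 such group in 20. This steer's array belongs to set 1, in which CRY1 was higher than in set 2.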

How the results depend on the processing

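The count of clock genes at an unadjusted p of 0.05 or less for gain, 1 in limma, was 0 with the methods' ordinary test, after subtraction of array medians and after quantile normalization, since ARNTL rose above 0.05 (0.0612, 0.0679 and 0.0647). It was 0 to 1 when single steers were left out, and the ARNTL effect then ranged from -0.60 to -0.35. ARNTL lost its call without low gain-high intake steers 1, 2 or 4, low gain-low intake steers 1, 2 or 4, high gain-high intake steers 2, 3 or 4 and high gain-low intake steers 1 or 4. The count for intake, 2, was 1 in a fit without the transcript clusters whose mean was below the median, where NPAS2 was not among those tested, and 0 to 2 when single steers were left out, with 0 without low gain-low intake steer 1. NPAS2 lost its call without high gain-high intake steers 3 or 4, high gain-low intake steers 1 or 2, low gain-high intake steers 1 or 2 and low gain-low intake steers 1 or 2, with an effect of 0.22 to 0.26. The counts over the 4 groups and for the interaction, both 0, were 0 to 1 when single steers were left out. CRY2 reached an interaction p of 0.0477 without high gain-low intake steer 1. The gain effects of CRY2 (0.0462 and 0.0357, without high gain-low intake steer 1 or low gain-high intake steer 1) and NR1D1 (0.0390 and 0.0473, without low gain-low intake steer 1 or low gain-high intake steer 4) also passed. The r of ARNTL with NR1D1 turned to 0.0472 as Spearman's rho and ranged from -0.38 to 0.35 when single steers were left out. Opposing pairs with a negative r were 10 to 12 of 12 then, 9 and 10 within array sets 1 and 2 and 10 to 11 in the other alternatives, and same-phase pairs with a positive r were 15 to 16 of 16, but 11 within array set 2. Pairs past an adjusted p of 0.05 were 5 to 9 then, and 5 with Spearman's rho and with group means subtracted. ARNTL with PER3 passed without high gain-high intake steer 4 (adjusted p = 0.0189 by permutation), low gain-high intake steer 1 or high gain-low intake steer 4, and ARNTL with PER2 without high gain-high intake steer 4 (adjusted p = 0.0277 by permutation). The exact permutation tests of single genes gave 2 calls under all 3 scalings and were not run under the other alternatives. No analysis paired by harvest day was possible because the labels do not give the day of each steer. A call at 0.05 without adjustment over all transcript clusters, 4 arrays per group and the unknown harvest hour limit all group differences. Breed shares also differed between the groups, although the study balanced sire breed when it chose the steers. Breed was in none of the fits.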

Other observations

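Among the glucocorticoid genes, FKBP5, a chaperone partner of the glucocorticoid receptor, had the smallest p over the groups (limma unadjusted p = 0.0237). Its mean log2 value was 11.27 ± 2.12 in high gain-high intake, 13.05 ± 1.43 in high gain-low intake, 10.31 ± 0.63 in low gain-high intake and 10.21 ± 1.29 in low gain-low intake steers (SD, n = 4). The gain effect was 1.90 (standard error 0.65, limma unadjusted p = 0.00957, adjusted p = 1.00), with 2.78 and 2.42 within the array sets. MT2A, a metallothionein, had a gain effect of 1.71 (standard error 0.84, unadjusted p = 0.0579). SGK1, a kinase gene induced by glucocorticoids, had an interaction of 1.74 (standard error 0.68, unadjusted p = 0.0207).

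Of the clock output genes, TFRC, the transferrin receptor, had an interaction of 1.13 (standard error 0.45, unadjusted p = 0.0239), with 0.80 and 1.67 within the array sets. BHLHE40, a repressor that binds E-boxes, ranged from 8.33 to 12.57 and had an r of 0.62 with PER2 (permutation p = 0.0110, adjusted p = 0.0807).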
